A study of Rattus norvegicus with 8 samples.

Results

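The genes described here are 10 markers of mesangial and smooth muscle cells, measured in glomeruli of Dahl rats and SHR rats: Acta2, Tagln, Myl9, Myh11, Cnn1, Des, Pdgfrb, Itga8, Serpine2 and Pde3a. They were chosen by symbol, together with every probe set (a group of short oligonucleotides that measures 1 transcript) annotated to them. That gave 19 of 31042 probe sets, of which 14 are annotated to 1 gene and 5 to both Acta2 and Actc1. Over the whole array, the probe sets annotated to 1 gene name 14217 genes. Where a gene has several probe sets, the brightest by its mean over all 8 arrays stands for it, and the others are given beside it. Male Dahl salt-sensitive rats, which become proteinuric spontaneously, were compared with male SHR rats, which are spontaneously hypertensive and not proteinuric. All of them received a low-salt diet, and their glomeruli were collected from the left kidney by magnetic retraction. The 4 groups were Dahl 6 weeks, SHR 6 weeks, Dahl 4 weeks and SHR 4 weeks, with 2 rats per group and 1 Affymetrix array per rat. The comparison is one between 2 strains, so the traits in which they differ cannot be told apart at either age. The study reports that significant proteinuria in Dahl rats began at the older of the ages compared here. The younger Dahl rats were therefore sampled before its reported onset. The part of proteinuria in the strain differences was not tested.

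Mesangial cells are the contractile cells that hold the capillary loops of the glomerulus together, and they share much of their contractile machinery with the smooth muscle cells of the arterioles. In these cells, smooth muscle actin (Acta2) and smooth muscle myosin (heavy chain Myh11, regulatory light chain Myl9) form the contractile filaments, and transgelin (Tagln) and calponin (Cnn1) bind to actin. Many genes of this programme are switched on by serum response factor, which binds the CArG box in their promoters together with coactivators of the myocardin family. Desmin (Des) forms intermediate filaments in mesangial and muscle cells and also appears in injured podocytes, PDGF receptor beta (Pdgfrb) and the integrin subunit alpha 8 (Itga8) are surface receptors of mesangial cells, Serpine2 (protease nexin 1) is a secreted inhibitor of thrombin and other serine proteases, and Pde3a degrades cyclic AMP.

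Promoter sequences of 6 of the 10 genes were matched in RefSeq (build GRCr8), those of Acta2, Des, Cnn1, Serpine2, Itga8 and Pde3a. The 250 bases before the transcription start are shown for 3 genes on which the results turn, 5′ to 3′ on the strand of the gene: Acta2, the classical gene of the smooth muscle programme, at chr1:241172504-241172753 on the minus strand, Des at chr9:84299376-84299625 on the plus strand and Serpine2 at chr9:88637203-88637452 on the minus strand.
Acta2: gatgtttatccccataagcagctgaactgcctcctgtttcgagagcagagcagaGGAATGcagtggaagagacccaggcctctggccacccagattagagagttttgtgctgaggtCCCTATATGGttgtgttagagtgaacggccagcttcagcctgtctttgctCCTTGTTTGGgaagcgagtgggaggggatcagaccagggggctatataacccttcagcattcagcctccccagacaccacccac
Des: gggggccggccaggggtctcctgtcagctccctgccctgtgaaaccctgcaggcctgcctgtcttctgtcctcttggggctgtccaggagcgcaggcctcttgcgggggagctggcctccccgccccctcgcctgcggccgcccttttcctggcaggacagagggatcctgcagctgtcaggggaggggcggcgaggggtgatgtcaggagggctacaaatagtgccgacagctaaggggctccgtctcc
Serpine2: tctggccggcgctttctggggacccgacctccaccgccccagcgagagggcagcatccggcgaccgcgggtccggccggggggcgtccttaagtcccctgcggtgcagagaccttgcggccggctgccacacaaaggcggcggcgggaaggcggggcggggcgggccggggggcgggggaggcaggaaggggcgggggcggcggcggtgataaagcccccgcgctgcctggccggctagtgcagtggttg
Capitals mark the matches to 3 motifs searched on both strands: the MCAT element (CATTCC), the CArG box, and the CArG box with 1 base of its core replaced by guanine or cytosine. Acta2 held 2 of the replaced kind, CCCTATATGG at 134 and CCTTGTTTGG at 84 bases before the start, and 1 MCAT element, read on the other strand, at 196 bases, none of them overlapping. Of 27457 rat promoters of this length, 1.5% held a CArG box, 6.73% one with a replaced base and 11.8% an MCAT element. None of the 3 motifs was found in this window of the other 5 genes. These are matches of letters and were not tested as binding sites.

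The deposited values are log2 intensities, so a difference of 1 is a doubling. Array medians lay between 4.11 and 4.17, and across probe sets the 2 rats of a group correlated at 0.989 to 0.997, rats of different groups at 0.950 to 0.994. The podocyte genes Nphs1, Podxl and Synpo had means of 12.20, 12.02 and 12.17 and the endothelial genes Kdr and Emcn 12.1 and 12.5, while the tubular gene Slc34a1 was also bright (13.5), so glomerular RNA came with tubular RNA. The score of 24 proximal tubule markers (the median deviation of its genes from their means over the 8 arrays) was -1.82 in Dahl 6 weeks replicate 2 and between -0.09 and 0.79 in the other 7 rats. In whole glomeruli, fewer cells of a type and less RNA per cell cannot be told apart.

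Over both ages, 8 of the 10 genes were higher in Dahl rats: Serpine2, Des, Tagln, Myh11, Acta2, Itga8, Pdgfrb and Myl9, in order of their differences, which ran from 2.31 (4.96-fold) to 0.54 (1.45-fold) on the log2 scale. Pde3a was lower by a small amount and Cnn1 did not pass the test. The median over the 10 genes was 0.78, against -0.05 over all probe sets tested. Of all probe sets, 34.7% passed in this comparison, 10.6% higher and 24.2% lower in Dahl rats. Every Dahl rat was above every SHR rat for 6 of the genes, below for 2 (Cnn1 and Pde3a), and the strains overlapped for Myl9 and Myh11. Among all probe sets, the strains were separated in this way in 50.3%, with Dahl rats higher in 8.15% and lower in 42.1%. Tests are those of limma with Benjamini-Hochberg adjustment over all probe sets, at an adjusted p under 0.05, and errors given as SE come from this fit (4 rats per strain). Without 1 array, 5 to 8 of the genes passed instead of 9, and the number was 5 when replicate 2 of SHR 6 weeks, of Dahl 4 weeks or of SHR 4 weeks was left out.

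**Figure D1:**
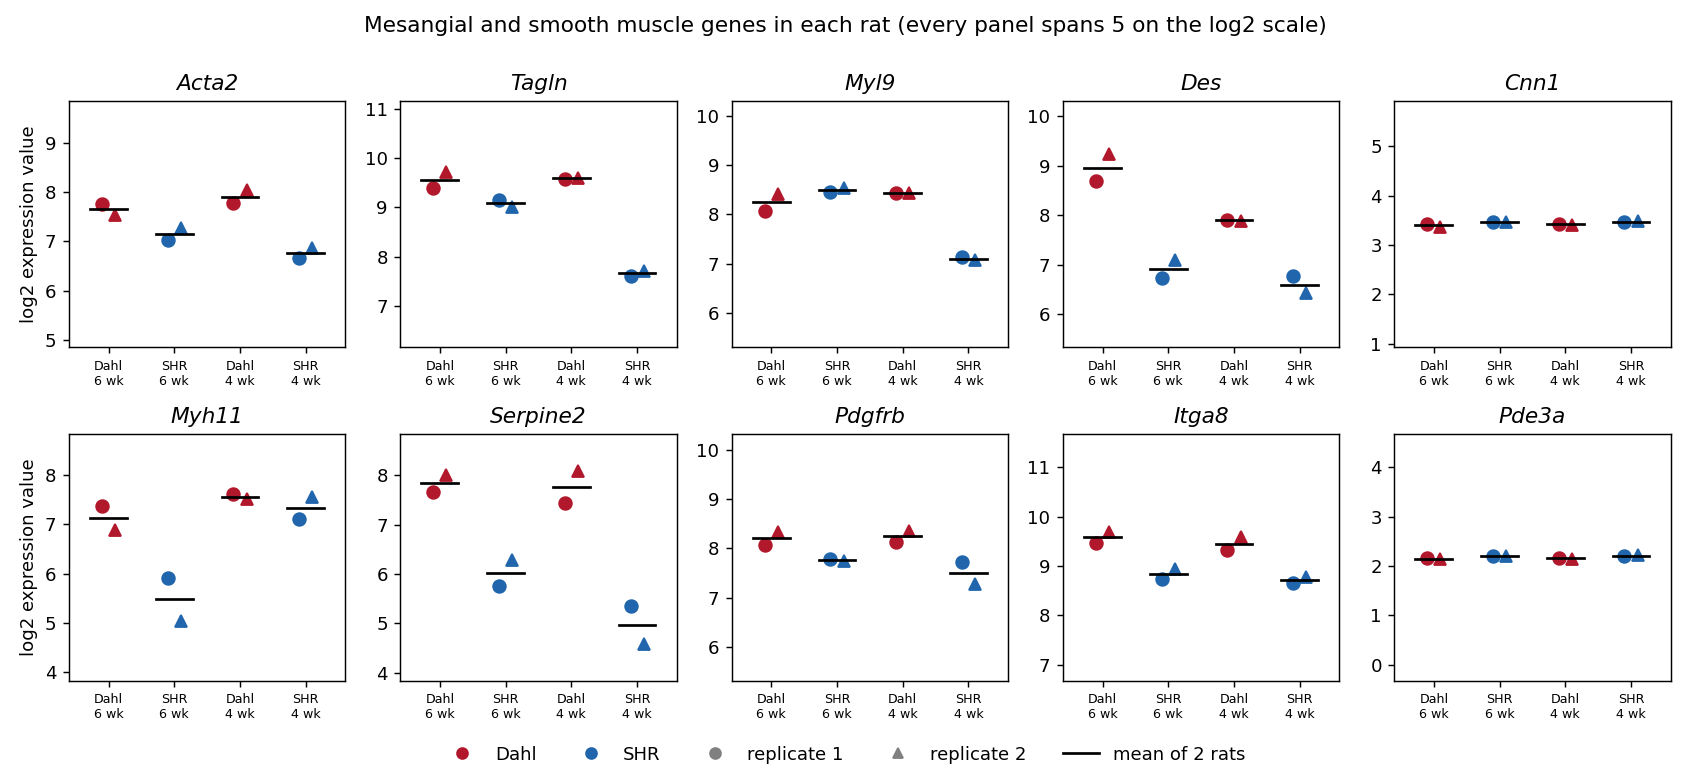
Log2 expression value (y axis) of the main probe set of each of the 10 genes in each of the 8 rats, by strain and age (x axis); the first rat of a group is a circle, the second a triangle and their mean a bar, and every panel spans 5 log2 units. Tagln and Myl9 stand lowest in SHR 4 weeks (7.62 and 7.72, and 7.14 and 7.07), Myh11 lowest in SHR 6 weeks (5.92 and 5.04), and Des highest in Dahl 6 weeks (8.69 and 9.23).

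For the 3 contractile genes Acta2, Tagln and Myl9 the strain difference did not pass at 6 weeks and passed at 4 weeks. Acta2, the actin of contractile mesangial and smooth muscle cells, had values of 7.75 and 7.54 in Dahl 6 weeks, 7.02 and 7.26 in SHR 6 weeks, 7.77 and 8.03 in Dahl 4 weeks and 6.67 and 6.86 in SHR 4 weeks. The strains did not overlap at either age, and the SHR 4 weeks rats were the lowest. Acta2 was higher in Dahl rats over both ages by 0.82 (SE 0.10, 1.77-fold, adjusted p = 0.0118). The difference of 0.51 at 6 weeks did not pass (adjusted p = 0.111), and at 4 weeks Acta2 was higher by 1.14 (SE 0.15, 2.20-fold, adjusted p = 0.0193). At 4 weeks the call was lost without Dahl 4 weeks replicate 2, SHR 4 weeks replicate 1 or SHR 4 weeks replicate 2 (1.00 to 1.23). The 5 probe sets shared by Acta2 and Actc1, the cardiac actin gene, were dim, with means of 2.21 to 3.04 and differences of -0.15 to 0.03, of which -0.08 and -0.15 passed as lower, and they give no separate value for Acta2.

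Tagln, whose product binds actin filaments, had values of 9.40 and 9.71 in Dahl 6 weeks, 9.16 and 9.00 in SHR 6 weeks, 9.58 and 9.59 in Dahl 4 weeks and 7.62 and 7.72 in SHR 4 weeks. The other groups lay close together, while the SHR 4 weeks rats stood apart below them. At 6 weeks the difference was 0.48 and did not pass (adjusted p = 0.0885), but it passed without Dahl 6 weeks replicate 1 (0.63, adjusted p = 0.0315). Tagln was higher in Dahl rats by 1.92 at 4 weeks (SE 0.12, 3.79-fold, adjusted p = 0.00471) and by 1.20 over both ages (SE 0.08, 2.30-fold, adjusted p = 0.00483). Both of these calls were made in all 8 fits that leave out 1 array.

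Myl9, the regulatory light chain, had values of 8.07 and 8.42 in Dahl 6 weeks, 8.46 and 8.54 in SHR 6 weeks, 8.43 and 8.43 in Dahl 4 weeks and 7.14 and 7.07 in SHR 4 weeks. As for Tagln, the SHR 4 weeks rats were the low ones, but at 6 weeks both Dahl rats lay below both SHR rats. The difference of -0.25 at 6 weeks did not pass (adjusted p = 0.188), and at 4 weeks Myl9 was higher in Dahl rats by 1.33 (SE 0.12, 2.51-fold, adjusted p = 0.00925). The mean over both ages, 0.54 (SE 0.08, 1.45-fold, adjusted p = 0.0171), therefore joins values of opposite sign. It lost its call without Dahl 4 weeks replicate 2, SHR 4 weeks replicate 2 or either SHR 6 weeks rat (0.52 to 0.56), and at 4 weeks the call was lost without Dahl 4 weeks replicate 2 (1.33, adjusted p = 0.0516).

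Myh11, the smooth muscle myosin heavy chain, followed another pattern. Its values were 7.37 and 6.88 in Dahl 6 weeks, 5.92 and 5.04 in SHR 6 weeks, 7.62 and 7.51 in Dahl 4 weeks and 7.10 and 7.56 in SHR 4 weeks. The SHR 6 weeks rats were the low ones, and at 4 weeks the strains overlapped. The difference over both ages was 0.94 (SE 0.25, 1.92-fold, adjusted p = 0.0448), close to the threshold, and 7 of the 8 fits without 1 array lost the call (0.72 to 1.06), the exception being the fit without SHR 6 weeks replicate 1. Neither 1.65 at 6 weeks (adjusted p = 0.0741) nor 0.23 at 4 weeks (adjusted p = 0.633) passed. The second probe set of Myh11 was dim (mean 2.47) and differed by -0.05.

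Cnn1 lay near the floor of the array. Its values were 3.42 and 3.38 in Dahl 6 weeks, 3.46 and 3.46 in SHR 6 weeks, 3.42 and 3.41 in Dahl 4 weeks and 3.47 and 3.48 in SHR 4 weeks. The Dahl values lay just below the SHR values, and the difference over both ages was -0.06 (adjusted p = 0.0544), with a call only without Dahl 6 weeks replicate 1 (-0.07, adjusted p = 0.0410). With the probe sets put in 4 equal classes by their mean signal, Cnn1 belonged to the second dimmest class, whose median difference was -0.11. A difference in calponin 1 RNA was not detectable at this signal.

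Des was the only one of the 10 genes that passed at 6 weeks. Its values were 8.69 and 9.23 in Dahl 6 weeks, 6.74 and 7.09 in SHR 6 weeks, 7.91 and 7.89 in Dahl 4 weeks and 6.77 and 6.41 in SHR 4 weeks. The strains were apart by more than the spread within any group, and the Dahl 6 weeks rats were the highest. The value of 9.23 is that of Dahl 6 weeks replicate 2, the rat with the proximal tubule score of -1.82. Des was higher in Dahl rats by 1.68 over both ages (SE 0.17, 3.20-fold, adjusted p = 0.00832), by 2.05 at 6 weeks (SE 0.24, 4.13-fold, adjusted p = 0.0322) and by 1.31 at 4 weeks (SE 0.24, 2.47-fold, adjusted p = 0.0350). The call over both ages held in all 8 fits without 1 array. The call at 6 weeks held only without Dahl 6 weeks replicate 1 (1.77 to 2.22 in the other 7 fits) and that at 4 weeks only without either Dahl 6 weeks rat (1.13 to 1.49 in the other 6). Desmin is made by more than 1 glomerular cell type. Of the 17 podocyte markers measured, 7 were also higher in Dahl rats and none lower (median 0.32). Of all probe sets, 10.6% were higher and 24.2% lower. The part of podocytes in the Des difference was not tested.

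Of the receptors, Itga8, which pairs with integrin beta 1 on mesangial cells, had values of 9.47 and 9.69 in Dahl 6 weeks, 8.73 and 8.94 in SHR 6 weeks, 9.32 and 9.60 in Dahl 4 weeks and 8.67 and 8.77 in SHR 4 weeks. The strains did not overlap, and the difference had nearly the same size at both ages. It was 0.74 over both ages (SE 0.10, 1.67-fold, adjusted p = 0.0121), 0.75 at 6 weeks (adjusted p = 0.0582) and 0.74 at 4 weeks (adjusted p = 0.0353). The call over both ages held in all 8 fits without 1 array, and that at 4 weeks only in those without either Dahl 6 weeks rat (0.60 to 0.88 in the other 6). The second probe set of Itga8, with a mean of 6.74, was higher by 1.09 (adjusted p = 0.0305).

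Pdgfrb, the receptor through which PDGF-B recruits mesangial cells, had values of 8.07 and 8.33 in Dahl 6 weeks, 7.79 and 7.75 in SHR 6 weeks, 8.13 and 8.36 in Dahl 4 weeks and 7.72 and 7.27 in SHR 4 weeks. The strains did not overlap, but the gap between them was small. Pdgfrb was higher in Dahl rats by 0.59 over both ages (SE 0.13, 1.51-fold, adjusted p = 0.0318), and neither 0.43 at 6 weeks nor 0.75 at 4 weeks passed (adjusted p = 0.163 and 0.0625). The call held only without Dahl 6 weeks replicate 1 or SHR 4 weeks replicate 1 (0.48 to 0.65 in the other 6 fits). The other 2 probe sets of Pdgfrb, with means of 5.77 and 6.02, differed by -0.13 and 0.00 (adjusted p = 0.791 and 0.988), so the difference was seen on 1 of 3 probe sets.

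Serpine2 had the largest difference of the 10 genes. Its values were 7.67 and 8.005 in Dahl 6 weeks, 5.76 and 6.28 in SHR 6 weeks, 7.43 and 8.10 in Dahl 4 weeks and 5.35 and 4.58 in SHR 4 weeks. The lowest Dahl rat lay more than 1 log2 unit above the highest SHR rat. Serpine2 was higher in Dahl rats by 2.31 over both ages (SE 0.27, 4.96-fold, adjusted p = 0.0104), which held in all 8 fits without 1 array. At 6 weeks the difference was 1.82 and did not pass (adjusted p = 0.0712), and at 4 weeks it was 2.80 (SE 0.38, 6.97-fold, adjusted p = 0.0207). The call at 4 weeks was lost without Dahl 4 weeks replicate 2, SHR 4 weeks replicate 2 or either SHR 6 weeks rat (2.42 to 2.80).

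Pde3a was dim in every rat. Its values were 2.15 and 2.13 in Dahl 6 weeks, 2.20 and 2.20 in SHR 6 weeks, 2.16 and 2.15 in Dahl 4 weeks and 2.20 and 2.21 in SHR 4 weeks. The strains did not overlap, yet the difference of -0.05 (adjusted p = 0.0489) is of the size of the median of the dimmest class of probe sets, -0.06, and the call was lost in all 8 fits without 1 array (-0.06 to -0.05).

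At the ages taken singly, 1 of the 10 genes passed as higher in Dahl rats at 6 weeks (Des) and 6 at 4 weeks (Acta2, Tagln, Myl9, Des, Serpine2 and Itga8), and none passed as lower. The medians were 0.49 at 6 weeks and 0.94 at 4 weeks. Of all probe sets, 3.28% passed at 6 weeks (1.65% higher and 1.63% lower) and 12% at 4 weeks (5.63% higher and 6.41% lower), so fewer probe sets as a whole passed at 6 weeks. A gene that passed at 4 weeks and not at 6 weeks is not thereby shown to differ between the ages. Tested directly, the change of the strain difference between the ages (its value at 6 weeks less its value at 4 weeks) passed for 1 of the 10 genes, Myl9 (-1.58, SE 0.17, adjusted p = 0.0470), and for 0.519% of all probe sets (0.235% positive and 0.283% negative). The value for Tagln, -1.44, was of similar size (SE 0.17, adjusted p = 0.0592), that for Acta2 was -0.63 (adjusted p = 0.365) and those for Serpine2 and Des were -0.98 and 0.74 (adjusted p = 0.655 and 0.546). Myl9 passed only without either Dahl 6 weeks rat and was lost in the other 6 fits (-1.62 to -1.54), while Tagln passed in those same 2 fits (-1.29 and -1.60). Without 1 array, 0 to 2 genes passed at 6 weeks (2 without Dahl 6 weeks replicate 1, 0 in the other 7 fits). At 4 weeks 1 to 6 passed: 1 without Dahl 4 weeks replicate 2, 2 when replicate 2 of SHR 4 weeks was left out, 3 without SHR 4 weeks replicate 1 or either SHR 6 weeks rat, and 4 or 6 in the other 3 fits.

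**Figure D2:**
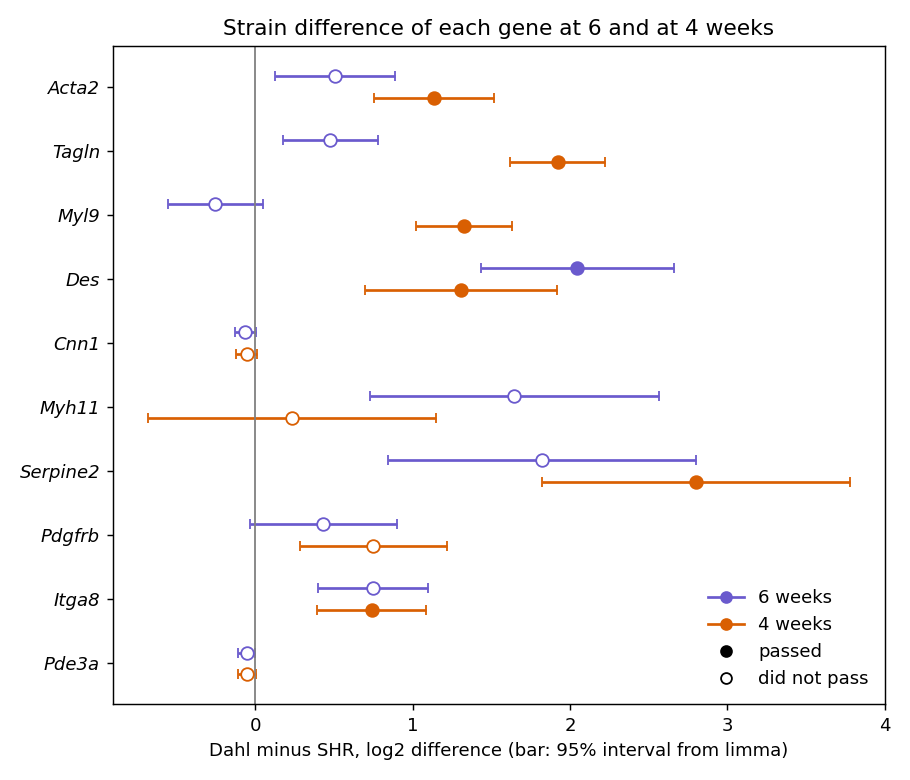
Dahl minus SHR on the log2 scale (x axis) for each of the 10 genes (y axis), with 6 weeks above 4 weeks; points are limma estimates, lines their 95% intervals, filled points passed the test. Des is the only filled point at 6 weeks (2.05), and Myl9 lies left of 0 at 6 weeks (-0.25) and right of it at 4 weeks (1.33).

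No change with age passed in Dahl rats, and those of Tagln and Myl9 passed in SHR rats. None of the 10 genes passed for 6 weeks against 4 weeks in Dahl rats (median -0.03), where 0.0805% of all probe sets did (0.0515% higher and 0.029% lower at 6 weeks). At an unadjusted p under 0.05 limma gave 1 of the 10 genes, Des. The t-test, which the study's methods name for mRNA and protein levels and not for the arrays, gave 0. In that strain Des had the largest change, 1.06, which did not pass (adjusted p = 0.321), and Tagln differed by -0.03. In SHR rats Tagln was higher at 6 weeks by 1.41 (SE 0.12, 2.66-fold, adjusted p = 0.0157) and Myl9 by 1.40 (SE 0.12, 2.63-fold, adjusted p = 0.0162), where 2.42% of all probe sets passed (1.5% higher and 0.915% lower). Both calls were lost without any 1 of the 4 SHR arrays (1.34 to 1.49 for Tagln and 1.36 to 1.44 for Myl9). Serpine2 at 1.05 (adjusted p = 0.291) and Acta2 at 0.38 (adjusted p = 0.333) did not pass, nor did Myh11 at -1.85 (adjusted p = 0.0845), the value farthest from 0. The light chain Myl9 and the heavy chain Myh11 of smooth muscle myosin thus had values of opposite sign in the same SHR rats. Whether the changes with age differ between the strains is the same test as above, which Myl9 passed.

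**Figure D3:**
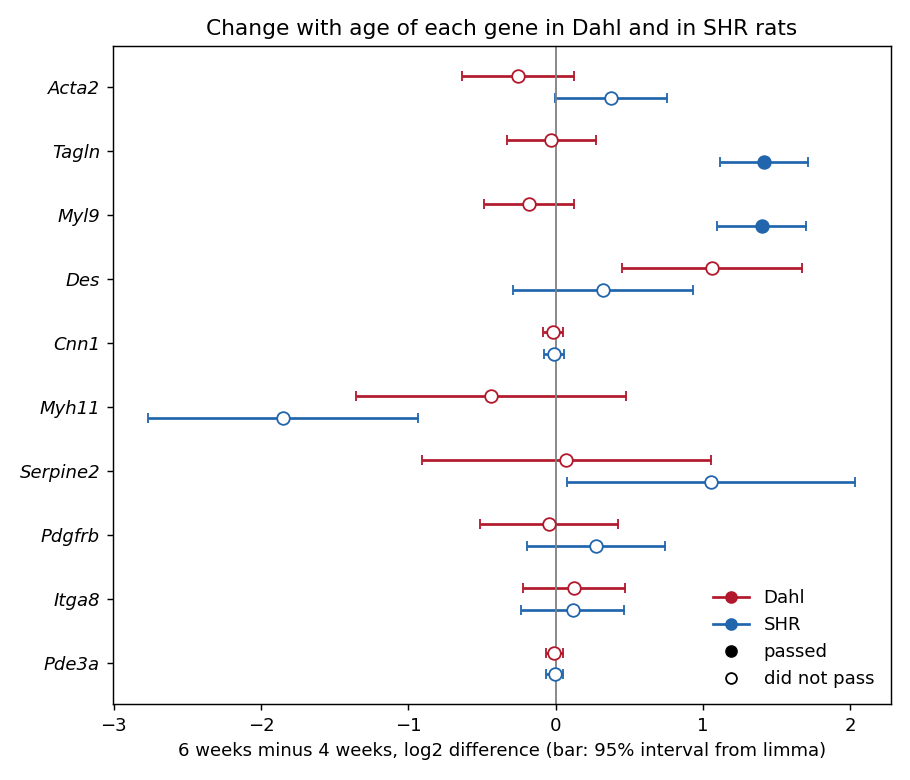
6 weeks minus 4 weeks on the log2 scale (x axis) for each of the 10 genes (y axis), with Dahl rats above SHR rats; points are limma estimates, lines their 95% intervals, filled points passed the test. The filled points are Tagln (1.41) and Myl9 (1.40) in SHR rats, and Myh11 in SHR rats lies farthest to the left (-1.85).

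Beyond these genes, 32 of 35 further genes of the contractile apparatus and its regulators were measured. Over both ages 13 were higher in Dahl rats, 3 lower and 16 did not pass (median 0.29). The shares of all probe sets, to set beside the counts of this and the next lists, were 10.6% higher and 24.2% lower over both ages. At 6 weeks they were 1.65% and 1.63%, and at 4 weeks 5.63% and 6.41%. Those with the smallest p were Rhoa (0.59, adjusted p = 0.00648), the GTPase that keeps smooth muscle contracted, Fhl2 (0.78), a LIM protein that binds serum response factor, Mylk (0.84), the kinase that phosphorylates myosin light chains, and Tpm2 (1.10), a tropomyosin. Mylk had values of 11.54 and 11.74 in Dahl 6 weeks, 10.84 and 10.93 in SHR 6 weeks, 11.04 and 11.28 in Dahl 4 weeks and 10.15 and 10.34 in SHR 4 weeks, with no overlap at either age. The lower ones, the visceral smooth muscle actin Actg2 (-0.21), phospholamban (Pln, -0.30) and leiomodin 1 (Lmod1, -0.15), were all dim, with means of 3.45, 3.03 and 2.94, and are also genes of smooth muscle. Without 1 array the calls of Rhoa, Fhl2, Mylk, Tpm2 and Actg2 were kept in all 8 fits, that of Pln was lost in 5 (-0.33 to -0.28) and that of Lmod1 in 7 (-0.17 to -0.12).

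At 6 weeks Rhoa alone of these 32 genes passed (0.60, median of the list 0.07), a call lost in 7 of the 8 fits without 1 array (0.52 to 0.66), the exception being the fit without Dahl 6 weeks replicate 1. At 4 weeks 10 were higher and 2 lower (median 0.48), among them Fhl2 (1.02), whose call was lost without SHR 4 weeks replicate 2 (1.03, adjusted p = 0.0523). Myh10, a nonmuscle myosin heavy chain, had values of 9.60 and 9.73 in Dahl 6 weeks, 10.01 and 9.90 in SHR 6 weeks, 9.77 and 9.63 in Dahl 4 weeks and 8.71 and 8.66 in SHR 4 weeks. This is the pattern of Myl9 and Tagln: the SHR 4 weeks rats stood apart below the other 3 groups. Myh10 was higher in Dahl rats at 4 weeks by 1.02 (adjusted p = 0.00686) and its difference changed by -1.30 (SE 0.11, adjusted p = 0.0298) at 6 weeks relative to 4 weeks, a call lost in 6 of the 8 fits without 1 array (-1.37 to -1.23). In SHR rats Myh10 (1.27, adjusted p = 0.00816) and Tpm2 (1.35, adjusted p = 0.0358) were higher at 6 weeks. Tpm2 lost that call in 6 fits (1.26 to 1.44) and Myh10 in 1, without SHR 6 weeks replicate 1 (1.21, adjusted p = 0.0566). Serum response factor (Srf) itself did not pass, with 8.33 and 8.66 in Dahl 6 weeks, 8.64 and 8.58 in SHR 6 weeks, 8.68 and 8.14 in Dahl 4 weeks and 8.01 and 7.79 in SHR 4 weeks, and myocardin (Myocd) was dim (mean 2.68).

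Of 30 other genes of mesangial cells and pericytes, 28 were measured, and 11 were higher and 4 lower in Dahl rats over both ages (median 0.48). Fbln5, a protein of elastic fibres, had values of 6.56 and 6.36 in Dahl 6 weeks, 5.40 and 5.48 in SHR 6 weeks, 5.94 and 6.44 in Dahl 4 weeks and 3.51 and 4.01 in SHR 4 weeks, a difference of 1.73 over both ages (SE 0.17, 3.31-fold, adjusted p = 0.00810). The secreted growth factor pleiotrophin (Ptn, 1.27), Lhfpl6 (1.21) and integrin beta 1 (Itgb1, 0.48), the partner of Itga8, were also higher, and so was Thy1 (0.95), a surface marker of mesangial cells in the rat. Itga1, the alpha chain of a collagen receptor, was lower (-0.56, adjusted p = 0.0155), as were Fhl1 (-0.32) and the dim genes Postn (-0.13, mean 2.82) and Tbx18 (-0.08, mean 2.41). Thy1 lost its call without replicate 2 of Dahl 4 weeks or of SHR 4 weeks (0.87 and 0.96), Itgb1 and Itga1 theirs without either SHR 6 weeks rat (0.48 and 0.48, and -0.53 and -0.58), Fhl1 in 6 of the 8 fits (-0.33 to -0.30), Postn in 7 (-0.14 to -0.10) and Tbx18 in all 8 (-0.10 to -0.07). The marker genes Pdgfra, Gata3 and Agtr1a did not pass, and Pdgfra had its lowest value (5.69) in Dahl 6 weeks replicate 2 and 6.96 to 8.10 in the other 7 rats.

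At 6 weeks only Itga1 of these 28 genes passed, and it was lower (-0.97, adjusted p = 0.0327, median of the list 0.34), with values of 7.24 and 7.41 in Dahl 6 weeks against 8.35 and 8.24 in SHR 6 weeks. That call was lost in 5 of the 8 fits without 1 array (-1.06 to -0.92), namely without Dahl 6 weeks replicate 2 or any 1 SHR rat. At 4 weeks 9 genes were higher and none lower (median 0.54), among them Fbln5 (2.43) and Lhfpl6 (1.72), and Lhfpl6 lost its call without Dahl 4 weeks replicate 2 or SHR 4 weeks replicate 2 (1.54 and 1.69). In SHR rats Ptn (1.44) and Fbln5 (1.68) were higher at 6 weeks, lost in 6 and in all 8 of those fits (1.30 to 1.58 and 1.43 to 1.93).

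Of 27 ligands and partners of the 10 genes, 23 were measured, 7 higher and 2 lower in Dahl rats over both ages (median 0.10). Fibronectin (Fn1) and osteopontin (Spp1), both ligands of the integrin that Itga8 and Itgb1 form, had the largest differences of the list. Fn1 had values of 9.28 and 9.27 in Dahl 6 weeks, 7.59 and 7.72 in SHR 6 weeks, 9.35 and 9.96 in Dahl 4 weeks and 7.10 and 6.91 in SHR 4 weeks, a difference of 2.14 (SE 0.15, 4.40-fold, adjusted p = 0.00483). Spp1 had values of 11.59 and 12.01 in Dahl 6 weeks, 9.89 and 9.75 in SHR 6 weeks, 10.96 and 11.40 in Dahl 4 weeks and 8.73 and 9.02 in SHR 4 weeks, a difference of 2.14 (SE 0.16, 4.42-fold, adjusted p = 0.00533). Tenascin C (Tnc) and vitronectin (Vtn), further ligands of this integrin, were dim (means 2.75 and 1.81) and did not pass (0.02 and -0.07). So both subunits, Itga8 and Itgb1, and 2 of the 4 ligands measured were higher in Dahl rats.

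The thrombin receptor F2r, which responds to the protease that Serpine2 inhibits, was higher as well. Its values were 10.63 and 10.98 in Dahl 6 weeks, 9.72 and 9.68 in SHR 6 weeks, 10.77 and 10.72 in Dahl 4 weeks and 9.51 and 9.43 in SHR 4 weeks, a difference of 1.19 (SE 0.08, 2.28-fold, adjusted p = 0.00500). Gucy1b1, a subunit of the soluble guanylate cyclase that nitric oxide activates, was higher by 1.43 (adjusted p = 0.00879). The lower genes of the list were dim: Pdgfd, a ligand of Pdgfrb (-0.09, mean 2.44, lost in 4 of the 8 fits without 1 array), and the phosphodiesterase Pde5a (-0.06, mean 2.08, lost in 7, -0.06 to -0.05). At 6 weeks Fn1 (1.62), Spp1 (1.98) and F2r (1.11) passed. F2r lost that call in 6 of the 8 fits (1.09 to 1.13), Spp1 in 5 (1.77 to 2.05) and Fn1 in 5 (1.56 to 1.69), those without Dahl 6 weeks replicate 2 or any 1 SHR rat. At 4 weeks 5 genes were higher and 1 lower, among them Fn1 (2.65) and F2r (1.27), and the call of F2r was lost without Dahl 4 weeks replicate 2 or SHR 4 weeks replicate 2 (1.30 and 1.23).

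Markers of other cell types were compared between the strains in the same way. Of 16 endothelial markers measured, 10 were higher in Dahl rats and none lower (median 0.52), and the podocyte markers had a median of 0.32. Of 24 proximal tubule markers, 3 were lower and 1 higher (median -1.05), and of 20 of the distal nephron 7 were lower and none higher (median -0.77), where 24.2% of all probe sets were lower and 10.6% higher. The medians of the tubular lists thus lay below 0. The share of proximal tubule markers that passed as lower was smaller than that of all probe sets, but the 2 shares cover unlike signal. Of the 7504 probe sets that passed as lower, 5635 lay in the 2 dimmest classes, which held 1 of the 24 markers. The summed unlogged level of the proximal tubule markers was 30200 to 79100 in Dahl 6 weeks, 101000 to 110000 in SHR 6 weeks, 84700 to 89000 in Dahl 4 weeks and 110000 to 127000 in SHR 4 weeks. That of the 10 genes was 2940 to 3500 in Dahl 6 weeks, 1940 to 2010 in SHR 6 weeks, 2870 to 3190 in Dahl 4 weeks and 1360 to 1370 in SHR 4 weeks. The lowest proximal tubule sum is that of Dahl 6 weeks replicate 2, while the score of replicate 1 (-0.09) was close to that of Dahl 4 weeks replicate 2 (-0.07). The sum of the distal nephron markers was 4220 to 7570 in Dahl 6 weeks, 8990 to 12300 in SHR 6 weeks, 5430 to 8630 in Dahl 4 weeks and 10400 to 12400 in SHR 4 weeks, so the Dahl groups overlapped. The part of tubular RNA in the differences of the 10 genes was not tested. With each array scaled by the median deviation of 33 podocyte and endothelial markers, which moves the median of all probe sets to -0.47, 5 of the 10 genes passed as higher and 2, Cnn1 and Pde3a, as lower over both ages. Itga8 (0.32, adjusted p = 0.0706), Pdgfrb (0.17) and Myl9 (0.12) then lost their calls, and Serpine2, Des, Tagln, Myh11 and Acta2 kept them.

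The summed level of the leukocyte markers, like the values of Tagln and Myl9, was lowest in SHR 4 weeks. It was 3880 to 5260 in Dahl 6 weeks, 3390 to 3630 in SHR 6 weeks, 2370 to 2650 in Dahl 4 weeks and 889 to 1150 in SHR 4 weeks. Of 21 measured, 10 were higher and 6 lower in Dahl rats over both ages (median 0.27), and 8 were higher at 6 weeks in SHR rats (median 1.64), among them C1qa, a complement gene of macrophages, with 8.54 and 8.48 in SHR 6 weeks against 5.10 and 5.29 in SHR 4 weeks (a call lost without SHR 6 weeks replicate 1). Of all probe sets, 10.6% were higher and 24.2% lower in Dahl rats over both ages, and 1.5% were higher at 6 weeks in SHR rats. Of the 6 lower leukocyte markers, 5 lay in the 2 dimmest classes, as did 10 of the 21. Not every leukocyte marker followed the sum. Mrc1, a macrophage mannose receptor, had values of 4.63 and 5.23 in Dahl 6 weeks, 6.51 and 6.63 in SHR 6 weeks, 5.64 and 4.97 in Dahl 4 weeks and 7.11 and 7.27 in SHR 4 weeks, where it was highest, and it was lower in Dahl rats (-1.76, adjusted p = 0.0106). The defining genes Itgam, Cd3d and Cd4 had means of 2.56, 2.28 and 2.18, in the dimmest class. Ptprc (1.20), Csf1r (1.31) and Aif1 (1.90) were brighter, with means of 6.25, 5.14 and 6.43, and were among the 10 higher over both ages. Their strains overlapped over the 8 rats, and none of them passed at 6 weeks. The part of these cells in the strain differences of the 10 genes was not tested.

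Of 34 striated muscle genes measured, which share actin and myosin functions with the genes described here, 6 were higher and 12 lower in Dahl rats (median -0.06). Among all probe sets 10.6% were higher and 24.2% lower. The higher ones were Myom2 (4.64), Synpo2l (4.25), Ryr1 (3.27), Ldb3 (1.92), Tnnc1 (1.02) and Ttn (0.68), of which Ldb3 lost its call in 3 of the 8 fits without 1 array (1.87 to 1.98) and Tnnc1 in 1 (1.03), while all 12 lower ones lay in the 2 dimmest classes of probe sets, as did 29 of the 34. Of the higher ones, Ttn was dim (mean 2.64, in the second dimmest class), and the strains overlapped for Ttn and Tnnc1. The defining genes Acta1, Ckm, Mb and Myh7 were near the floor, with means of 2.36, 2.38, 2.56 and 2.30. The summed level was 5930 to 8110 in Dahl 6 weeks, 4440 to 4530 in SHR 6 weeks, 4890 to 5780 in Dahl 4 weeks and 1520 to 1760 in SHR 4 weeks. This sum is mostly that of Tnnc1, whose mean was 11.75, against 6.44 for Myom2, the next brightest. It is therefore not a level of the 34 genes as a set.

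**Figure D4:**
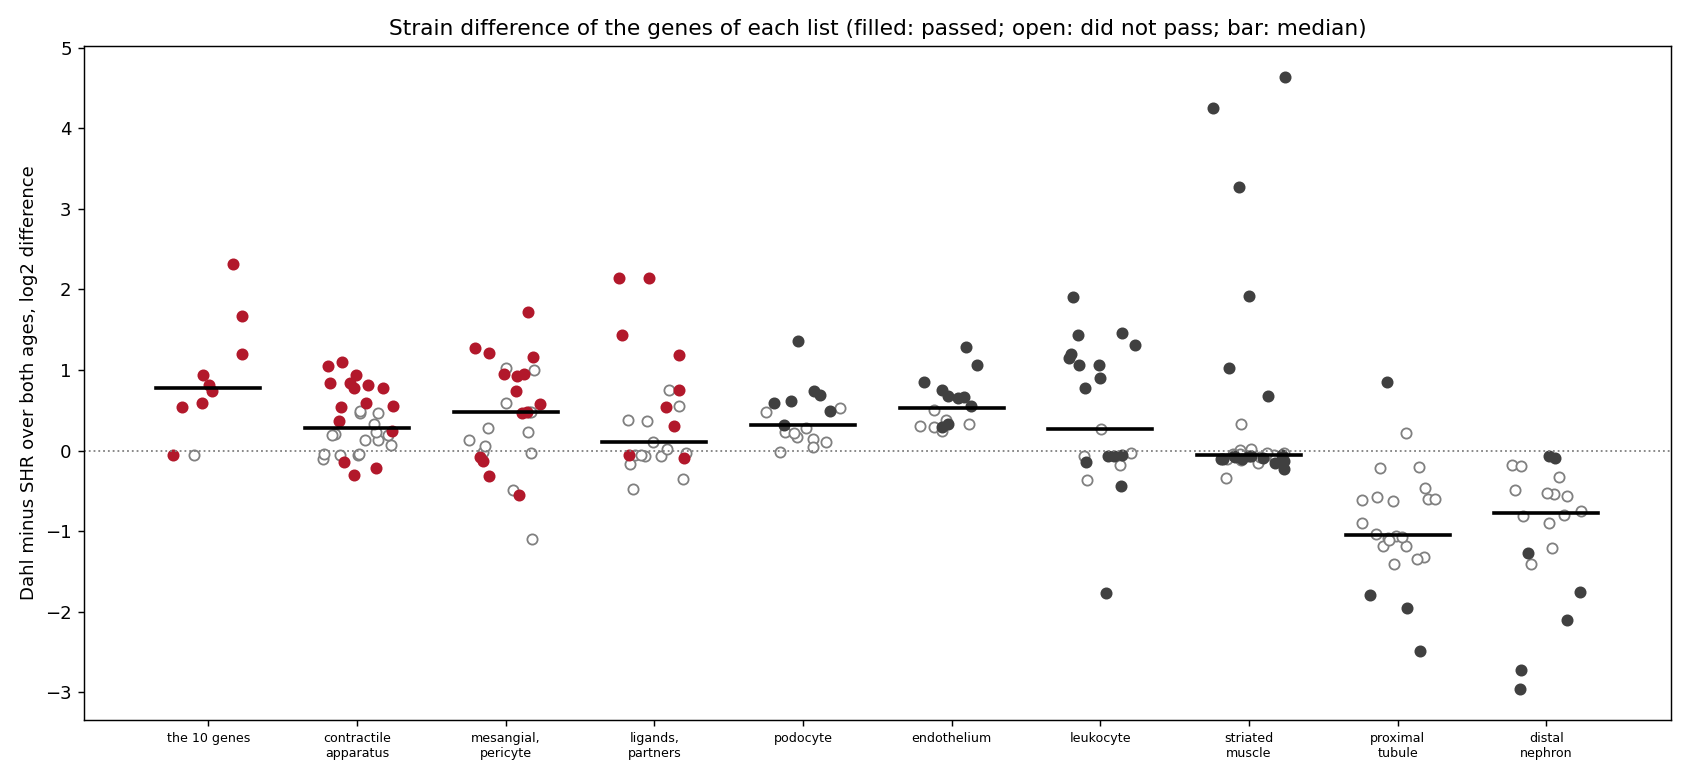
Dahl minus SHR over both ages on the log2 scale (y axis) for every measured gene of the 10 genes, the 3 related lists (red) and the markers of 6 other cell types (grey); filled points passed the test, open points did not, and bars are medians. The 10 genes have a median of 0.78 and the proximal tubule markers one of -1.05, and the 3 highest points are striated muscle genes (Myom2 4.64, Synpo2l 4.25 and Ryr1 3.27).

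The 4 genes with the largest differences over both ages were compared across the 8 arrays with 3710 genes that varied by at least 1 log2 unit, as a description, since all points share the strain and age of their rat. Nearest to Serpine2 were Ildr2, S100a6 and Lama4 (Pearson r of 0.988, 0.987 and 0.985). Nearest to Des were Adgrl4, Itga3 and Thbd (0.992, 0.992 and 0.990), and nearest to Tagln were Loxl1, Aplnr and Dap (0.993, 0.992 and 0.990). Myh11 had no neighbour as near, with Ddx3x-ps1 at 0.935, Lox at 0.928 and Golph3 at 0.912. No gene of the 10 was among these neighbours.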

How the data were processed

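Glomerular RNA of 8 male rats (Dahl and SHR, 6 and 4 weeks, 2 rats per group) was measured on 1 Affymetrix array each, and no normalization was added to the deposited log2 values, which the authors had background-corrected, normalized and summarized per probe set. Their processing notes name RMA and GCRMA without versions. The choice between these, and the days of processing: not given in the sources used here. After 57 control probe sets were left out, 31042 were tested, of which the platform annotation names 1 gene for 20826 and several for 436. The means of the 4 groups were modelled with limma 3.58.1 (R 4.3.3), with 4 residual and 0.921 prior degrees of freedom and Benjamini-Hochberg adjustment over all probe sets at 0.05, and the script was tested on simulated data. The number of arrays limits the precision. The 10 genes, the lists and the tests were chosen with earlier results of these data known. Named are the 10 genes, up to 4 genes per related list and direction with the smallest p (up to 2 in comparisons other than that over both ages, more where few passed), up to 3 defining genes of other cell types, and the 3 nearest genes by correlation. Further list genes (Thy1, Srf, Myocd, Pdgfra, Gata3, Agtr1a, C1qa, Mrc1, Ptprc, Csf1r, Aif1, Tnc, Vtn and the striated muscle genes) were named after their values were seen. Alternatives were another variance model, other normalizations, only brighter probe sets, the mean of probe sets, the replicate number as a block, single ages, other thresholds, an additive model, each array left out and the methods' t-test. The study names that t-test for mRNA and protein levels and names no test for its arrays. Promoters are those of RefSeq, build GRCr8.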

Additional observations from a re-analysis of the deposited data

Results flagged for a closer look

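The strain difference of 2 contractile genes was not the same at the 2 ages, by the test of the difference itself (limma, the difference at 6 weeks minus that at 4 weeks). For Myl9, Dahl minus SHR was -0.25 at 6 weeks and 1.33 at 4 weeks, and the change between the ages was -1.58 (adjusted p = 0.0470). For Myh10, Dahl minus SHR was -0.29 at 6 weeks and 1.02 at 4 weeks, and the change was -1.30 (adjusted p = 0.0298). In both, the SHR 4 weeks rats held the lowest values. Both calls rest on 2 rats per group and were lost in 6 of the 8 fits without 1 array (-1.62 to -1.54 for Myl9 and -1.37 to -1.23 for Myh10), and with the replicate number as a block.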

How the results depend on the processing

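Of the 10 genes, Tagln, Des, Serpine2 and Acta2 were called over both ages under every alternative normalization and left-out array that was run. Tagln alone of them lost its call under the methods' t-test after Benjamini-Hochberg adjustment (adjusted p = 0.0651). The mean of a gene's probe sets could not change their values, since none of these genes has a second probe set annotated to it alone. Counts below are of the 10 genes and of the 31042 probe sets; the fits above gave 9 and 10787 over both ages, 1 and 1017 at 6 weeks, 6 and 3738 at 4 weeks, 0 and 25 with age in Dahl rats, 2 and 751 with age in SHR rats, and 1 and 161 for the change of the strain difference. The causes of the changes were not tested.

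With 1 array left out, 5 to 8 genes and 2286 to 11471 probe sets passed over both ages, 0 to 2 and 63 to 3352 at 6 weeks, 1 to 6 and 768 to 3905 at 4 weeks, 0 to 0 and 0 to 1043 with age in Dahl rats, 0 to 2 and 64 to 940 with age in SHR rats, and 0 to 2 and 7 to 540 for the change of the strain difference. An intensity trend with robust variance gave 6 genes and 8488 probe sets at 6 weeks and 10134 probe sets at 4 weeks. Quantile normalization gave 4740 probe sets over both ages and turned the sign of Cnn1 and Pde3a, none called (0.0069 and 0.0010 over both ages, 0.0021 and 0.00012 at 6 weeks, 0.0117 and 0.0019 at 4 weeks). Median centring gave 2 genes for the change of the strain difference. The brighter probe sets alone gave 4777 probe sets over both ages, 4 genes at 6 weeks, 1196 probe sets with age in SHR rats and 2 genes for the change.

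Scaling to podocyte and endothelial markers, which moved the median of all probe sets to -0.47, gave 22953 probe sets over both ages, 4 genes and 9473 probe sets at 6 weeks, 860 probe sets with age in Dahl rats, 4 genes and 1637 probe sets in SHR rats, and 2 genes and 591 probe sets for the change. It turned the sign of Tagln (-0.010) and Pdgfrb (-0.057) at 6 weeks and of Myh11 at 4 weeks (-0.12). The mean of a gene's probe sets took Pdgfrb at 6 weeks to -0.014, and with either Dahl 6 weeks rat left out the change of Tagln with age in Dahl rats was -0.19 or 0.12; none of these was called. The arrays of 1 age alone gave 0 genes and 2 probe sets at 6 weeks and 2 genes and 761 probe sets at 4 weeks. A threshold of 0.01 gave 2 genes and 1050 probe sets over both ages, and one of 0.1 gave 16891 probe sets.

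The replicate numbers are only shared numbers: same-numbered rats of different groups deviated with correlations of -0.225 to 0.236. With the replicate block, 5598 probe sets passed over both ages, 339 at 6 weeks, 2028 at 4 weeks, 3 and 360 with age in Dahl and SHR rats, and 0 genes and 31 probe sets for the change. The methods' t-test at an unadjusted p under 0.05 called 8 genes and 15388 probe sets over both ages, 4 and 9192 at 6 weeks, 8 and 9750 at 4 weeks, 1374 probe sets with age in Dahl rats and 3947 in SHR rats. After Benjamini-Hochberg adjustment it called 7 genes and 12019 probe sets over both ages, 0 and 4 at 6 weeks, 0 and 0 at 4 weeks, 0 probe sets with age in Dahl rats, and 0 genes and 0 probe sets in SHR rats. Cnn1, Pde3a and the second probe set of Myh11 are too dim for a change to be read.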

Other observations

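Of 10 measured genes of the juxtaglomerular region, where smooth muscle cells of the afferent arteriole make renin beside the macula densa, 3 were higher and 1 lower in Dahl rats over both ages, against 10.6% of all probe sets higher and 24.2% lower; renin itself was not analysed here. Agtr1b, an angiotensin II receptor, had values of 10.25 and 10.32 in Dahl 6 weeks, 9.06 and 9.14 in SHR 6 weeks, 9.60 and 10.13 in Dahl 4 weeks and 6.85 and 6.99 in SHR 4 weeks, a difference of 2.07 (SE 0.13, 4.18-fold, adjusted p = 0.00358). The cyclooxygenase gene Ptgs2, known from the macula densa, had values of 7.16 and 7.28 in Dahl 6 weeks, 6.35 and 5.60 in SHR 6 weeks, 8.18 and 8.23 in Dahl 4 weeks and 5.73 and 5.93 in SHR 4 weeks, a difference of 1.81 (SE 0.18, 3.50-fold, adjusted p = 0.00827). The connexin Gja5 was higher by 0.63 (adjusted p = 0.0192), and Akr1b7, a renin cell marker in the mouse, was dim (mean 2.36) and lower by a difference of -0.07. Agtr1b and Ptgs2 passed in all 8 fits without 1 array, and Gja5 lost its call in 3 (0.62 to 0.65), those without SHR 4 weeks replicate 2 or either SHR 6 weeks rat.

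Of 13 measured smooth muscle genes of larger vessels and visceral muscle, 1 was higher and 2 lower over both ages (median -0.03). Among all probe sets 10.6% were higher and 24.2% lower. The natriuretic peptide clearance receptor Npr3 was higher by 0.98 (adjusted p = 0.0214), and Actg2 (-0.21) and the small heat shock protein gene Hspb6 (-0.23, adjusted p = 0.0425) were lower. Hspb6 had values of 7.16 and 6.92 in Dahl 6 weeks, 6.95 and 7.04 in SHR 6 weeks, 7.32 and 7.30 in Dahl 4 weeks and 7.84 and 7.80 in SHR 4 weeks, so its strains overlapped at 6 weeks, and in SHR rats it was lower at 6 weeks by 0.82 on the log2 scale (adjusted p = 0.0245). The strain difference of Hspb6 was 0.05 at 6 weeks (adjusted p = 0.702) and -0.51 at 4 weeks (adjusted p = 0.0306). Its value over both ages thus rests on 4 weeks. With 1 array left out, Npr3 lost its call in 4 of the 8 fits (0.95 to 1.01), Hspb6 in 6 over both ages (-0.25 to -0.21) and in 6 with age in SHR rats (-0.86 to -0.78).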
